A study of Mus musculus with 2 samples.

Results

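The genes for the Notch ligands Jag1, Jag2, Dll1 and Dll4 and for the receptors Notch1, Notch2, Notch3 and Notch4 were compared between dendritic cells of 2 mouse strains. These 8 genes were chosen by symbol, out of 21922 genes measured, and each of the 8 had 1 probe set. The cells were untreated bone marrow-derived dendritic cells of normal CBA/J and C57BL/6 mice, grown with a GM-CSF supernatant and harvested on day 7. Wells of a strain were combined 4 h after plating, and their total RNA was measured on Affymetrix Mouse Gene 1.0 ST arrays, with 1 array per strain. No allele or agent separated the groups other than the strain itself, and age, sex, mouse numbers and the C57BL/6 substrain are not given in the labels used here. Cultures of this kind also support macrophages and granulocytes. The comparison asks which transcripts differ at rest between strains. With 1 array per strain there was no replicate error, no test was possible, and strain cannot be told apart from mouse, culture or array.

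Notch signalling passes between touching cells. A ligand of the Jagged or Delta-like family on one cell binds a Notch receptor on the next, ADAM proteases and then gamma-secretase cut the receptor, and its freed intracellular part enters the nucleus, where it joins the DNA-binding protein RBPJ and a Mastermind-like coactivator at genes such as Hes1. In the mouse spleen, Notch2 signalling is needed for a subset of conventional dendritic cells, and in mouse studies Dll4 and the Jagged ligands on dendritic cells have been tied to different kinds of helper T cell response.

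Notch1, Notch2 and Jag1 were the members whose signal lay over the 95th percentile of negative control probe sets on both arrays, and their promoters are shown for that reason. Each is the 250 bases before the RefSeq gene start on GRCm38.p6, which is C57BL/6 sequence, written 5′ to 3′ on the gene's strand. Capitals mark the SP1-type GC box GGGCGG, read on both strands, where copies may overlap.
Notch1 promoter, chr2:26503823-26504072, minus strand: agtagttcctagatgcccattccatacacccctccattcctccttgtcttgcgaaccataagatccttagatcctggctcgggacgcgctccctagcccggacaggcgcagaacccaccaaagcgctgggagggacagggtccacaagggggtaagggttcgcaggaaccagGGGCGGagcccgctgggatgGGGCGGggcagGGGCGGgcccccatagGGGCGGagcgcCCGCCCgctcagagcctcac
Notch2 promoter, chr3:98013288-98013537, plus strand: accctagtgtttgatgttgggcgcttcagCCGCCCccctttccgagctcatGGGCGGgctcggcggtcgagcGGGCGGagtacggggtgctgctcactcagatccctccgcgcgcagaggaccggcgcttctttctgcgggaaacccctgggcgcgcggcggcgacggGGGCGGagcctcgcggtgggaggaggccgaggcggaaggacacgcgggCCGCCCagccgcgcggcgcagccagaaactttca
Jag1 promoter, chr2:137116521-137116770, minus strand: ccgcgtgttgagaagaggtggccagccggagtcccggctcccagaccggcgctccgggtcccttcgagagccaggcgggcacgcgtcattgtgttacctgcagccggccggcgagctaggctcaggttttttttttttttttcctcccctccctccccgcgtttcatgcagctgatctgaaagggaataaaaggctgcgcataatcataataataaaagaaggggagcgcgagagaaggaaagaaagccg
The Notch1 and Notch2 windows each held 5 GC boxes, and the Jag1 window held none of them. The same search found the box in 5 of the 8 members, the others being Jag2, Dll4 and Notch3, and in 32.7% of 32851 windows of the same 250 bases before the start in the RefSeq table. The RBPJ core TGGGAA and the TATA box TATAAA, also read on both strands, were in none of the 9 windows of the members, of which Dll1 has 2. They were in 21.6% and 12.4% of all windows. The window of Jag2 and 1 of the 2 windows of Dll1 lie within the RefSeq gene span. Those of Notch3 and Notch4 overlap the gene start by a few bases. The GC content of the windows was 66.0% for Notch1, 72.0% for Notch2 and 57.2% for Jag1, against a median of 52.4% over all windows. These matches describe the letters of the windows and say nothing of binding in these cells. CBA/J sequence was not used here.

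Signal is the deposited log2 value, and every difference is the CBA/J value less the C57BL/6 value, so that a positive one means more signal in CBA/J. Background was read from the 5222 probe sets that the file marks as negative controls, whose median was 5.49 on the CBA/J array and 5.27 on the C57BL/6 array. Their 95th percentiles were 8.28 and 8.17. A level rule asked that a gene's signal be no lower than the median gene of the same array on at least 1 array, 6.16 for CBA/J and 6.21 for C57BL/6, and 11448 genes met it. Levels of different genes are not ranked here, since each probe set responds on its own scale. Probes were designed on C57BL/6 sequence, and whether CBA/J transcripts mismatch them was not tested. Of 10 conventional dendritic cell markers, 9 reached the level rule. Itgax, the CD11c gene, read 10.50 on the CBA/J array and 10.63 on the C57BL/6 array. Cd74, the class II invariant chain gene, was at 12.02 and 12.33. Zbtb46 at 6.77 and 7.03, Batf3 at 6.55 and 6.92 and Kit at 6.18 and 6.56 lay under the negative control 95th percentiles. Flt3, a receptor of dendritic cell precursors, lay below the level rule at 5.67 and 5.65. The macrophage receptor gene Csf1r was bright as well, at 11.67 and 11.16.

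None of the 8 members differed by 2-fold or by 1.5-fold between the strains. Of the 8, 6 reached the level rule, and 0 of these 6 passed 2-fold, beside 2.14% of all genes that reached it, with 1.35% of genes higher in CBA/J and 0.795% in C57BL/6. At 1.5-fold the count was also 0 of 6, beside 6.93% of all genes, with 4.45% toward CBA/J and 2.47% toward C57BL/6. Against shares this small, a count of 0 in 6 is close to the background and is not a result about the family. Differences ran from -0.39 in Jag2 to 0.39 in Notch1, with 4 members above 0 and 4 below it. Among the 6 members at or over the level rule the median was 0.01, beside 0.08 over all genes that met the rule.

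**Figure D1:**
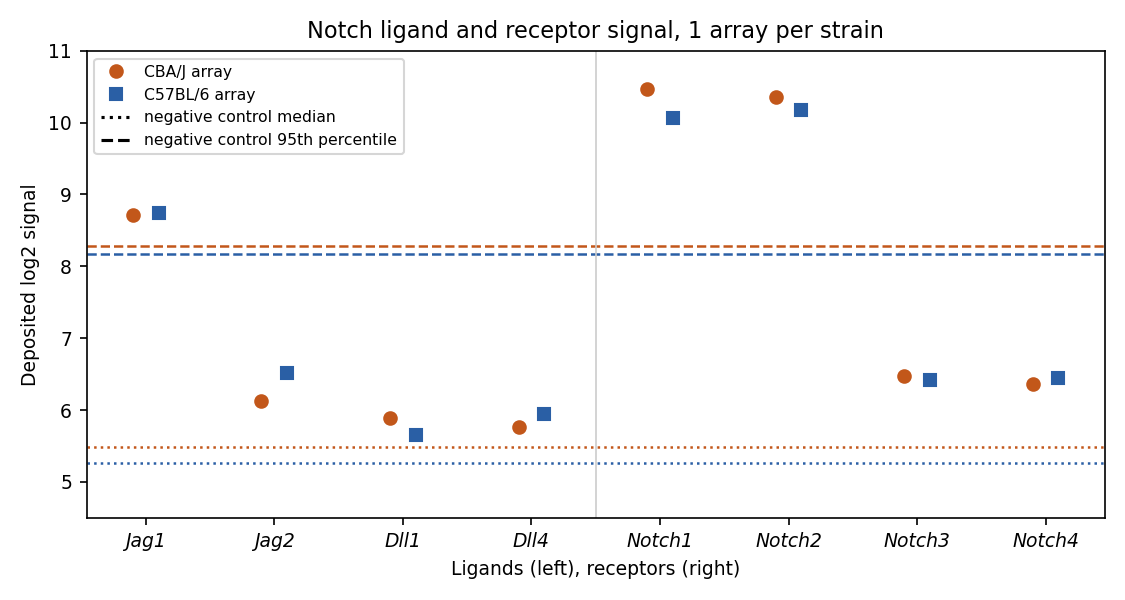
Deposited log2 signal (y axis) of each Notch ligand and receptor gene (x axis) on the CBA/J array (circles) and the C57BL/6 array (squares), with the median (dotted) and 95th percentile (dashed) of the negative controls of each array in its colour. Notch1, Notch2 and Jag1 lie over the dashed lines on both arrays, the other 5 genes lie between the dotted and dashed lines, and the points of a gene sit close together.

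Among the receptors, Notch1 gave a log2 signal of 10.46 on the CBA/J array and 10.07 on the C57BL/6 array. Notch1, which is best known for its part in T cell commitment, was 1.31-fold higher in CBA/J, a log2 difference of 0.39. Among genes that reached the level rule, 1250 had a larger difference toward CBA/J, and 16.7% differed by more in either direction. Notch2 gave a log2 signal of 10.36 on the CBA/J array and 10.18 on the C57BL/6 array. It was 1.13-fold higher in CBA/J, and 52.1% of genes differed by more. Negative controls dimmer than Notch1 made up 99.1% on the CBA/J array and 98.8% on the C57BL/6 array, and those dimmer than Notch2 made up 99.0% and 98.9%.

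Notch3 and Notch4 are receptors known mainly from vascular smooth muscle and from endothelium. Notch3 gave a log2 signal of 6.48 on the CBA/J array and 6.42 on the C57BL/6 array, a difference of 0.05 that became -0.06 with each array centred on its median. Notch4 gave a log2 signal of 6.36 on the CBA/J array and 6.44 on the C57BL/6 array, a difference of -0.08. Both reached the level rule, but between 70.8% and 76.4% of negative controls were dimmer on the array concerned, so their signal was not well separated from background. Signal this close to background limits what their ratios measure.

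Among the ligands, Jag1, which is also a known NF-kB response gene, stood over the negative controls. It gave a log2 signal of 8.71 on the CBA/J array and 8.74 on the C57BL/6 array, a difference of -0.03 and a ratio of 1.02. On the deposited scale 92.2% of genes that reached the level rule differed by more. The Jag1 difference was between -0.14 and -0.13 under the 3 rescalings tried. Those of Notch2 and Notch3 were nearer 0 under all 3, and those of Notch4, Dll4 and Dll1 under some of them. Its signal exceeded that of 96.5% of negative controls on the CBA/J array and 96.7% on the C57BL/6 array.

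Jag2, the second Jagged ligand, gave a log2 signal of 6.13 on the CBA/J array and 6.52 on the C57BL/6 array. It reached the level rule on the C57BL/6 array alone and was 1.31-fold higher there, with a log2 difference of -0.39. Among genes that reached the level rule, 660 differed further toward C57BL/6. In size the Jag2 difference matched that of Notch1 with opposite sign, but 65.9% of negative controls were dimmer than Jag2 on the CBA/J array and 77.8% on the C57BL/6 array.

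The Delta-like ligand genes lay below the level rule on both arrays. Dll1 gave a log2 signal of 5.89 on the CBA/J array and 5.65 on the C57BL/6 array, a difference of 0.24. Dll4, the Delta-like ligand that is known to be induced in dendritic cells by Toll-like receptor signals, gave a log2 signal of 5.77 on the CBA/J array and 5.95 on the C57BL/6 array, a difference of -0.18. A non-coding gene, Gm14207, overlaps the start of Dll4 in the RefSeq table, and whether the probe set reads it was not tested. Both ligand genes were over the negative control medians by 0.68 at most, reached by Dll4 on the C57BL/6 array. In these unstimulated cells the Delta-like signal thus lay among the negative controls, of which 56.5% to 66.5% were dimmer than Dll4 and at most 59.8% dimmer than Dll1, and a difference between strains was not measurable at this signal.

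Array noise could not be measured by itself. The spread of the difference was read from control probe sets and from probe sets of like signal. Over genes, that spread can also hold strain and culture differences. Of 1845 negative controls that met the level rule, 5.47% passed 2-fold and 25.5% passed 1.5-fold, beside 2.14% and 6.93% of genes. For 1167 positive controls the shares were 1.46% and 7.11%. For each member, probe sets whose mean log2 signal lay within 0.5 of its own were taken, and the 5th to 95th percentile of their differences was read. All 8 members lay inside this range for the negative controls and for all genes. Of the 8, 7 lay inside it for the positive controls. Notch1 was the exception: its difference of 0.39 lay over the range from -0.24 to 0.37 of 134 positive controls, and inside the range from -0.41 to 0.51 of 42 negative controls and from -0.39 to 0.47 of 586 genes. For Jag2, whose difference was -0.39, the ranges were -0.57 to 0.97 for 1073 negative controls and -0.45 to 0.50 for 4252 genes. The negative control ranges were wider at low signal and leaned toward CBA/J. They describe these arrays and are not a test between strains.

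**Figure D2:**
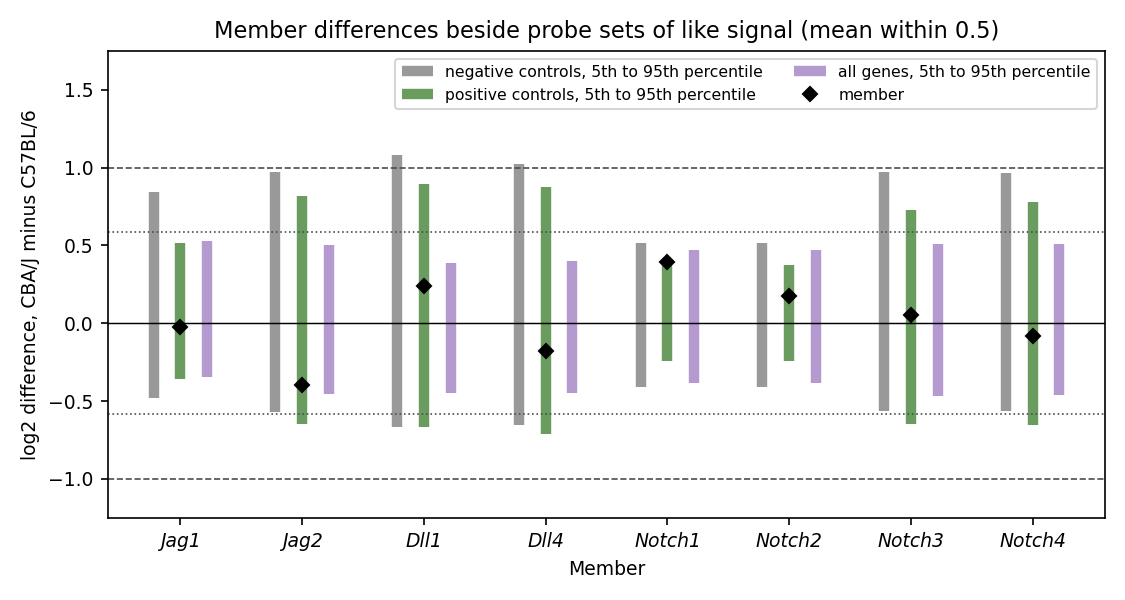
Log2 difference, CBA/J minus C57BL/6 (y axis), of each member (diamond, x axis), beside the 5th to 95th percentile of the difference in negative controls (grey), positive controls (green) and all genes (purple) whose mean signal lies within 0.5. Dotted lines mark 1.5-fold and dashed lines mark 2-fold; every member lies between the dotted lines, and Notch1 lies just over the positive control range.

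The other listed genes of the Notch pathway stayed within 1.5-fold where they reached the level rule. Lists of its sugar-transfer, ligand uptake, cleavage, turnover, nuclear and target genes, with ligand-like genes, held 53 genes, of which 45 reached the level rule. None of the 45 passed 1.5-fold, beside the 6.93% of all genes given above, and Adam17, described below, lay just under that line. These lists too were chosen with earlier results of these data known, so the count is not a test. Of these 45, 29 were above 0, 15 were below it and 1, Mib2, had the same value on both arrays, and the median was 0.12. Over all genes that reached the level rule, 61.2% were higher in CBA/J.

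Receptors are first modified with sugars. Pofut1, the O-fucosyltransferase gene whose product prepares the receptor for ligand binding, had the largest difference of the 5 genes of that list, at 0.19. The fringe genes Lfng and Mfng, whose products extend the fucose and shift receptors between Delta-like and Jagged ligands, were at 0.18 and 0.08. Lfng gave a log2 signal of 8.01 on the CBA/J array and 7.83 on the C57BL/6 array, and Mfng was at 6.27 and 6.19. The list median of 0.08 became -0.04 with arrays centred on their medians. Among ubiquitin ligases of the ligand-sending cell, Neurl3, of the Neuralized family, differed by 0.18 and Mib1, which drives ligand uptake, by 0.12, with a median of 0.09 over the 4 of 5 genes that reached the level rule. That median became -0.02 under the same centring.

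The proteases that cut the receptor gave the largest pathway difference toward CBA/J. Adam17 gave a log2 signal of 10.25 on the CBA/J array and 9.67 on the C57BL/6 array, and its difference of 0.584 lay just under the 1.5-fold line of 0.585. Adam10, the main protease of ligand-driven receptor cleavage, read 10.01 on the CBA/J array and 9.54 on the C57BL/6 array, a difference of 0.48. Both proteases also cut many other surface proteins. The gamma-secretase subunit genes differed less, between -0.20 in Psen2 and 0.29 in Aph1b. Of the 10 cleavage genes, 5 were higher on each array, and the list median of 0.05 became -0.04 after quantile normalization.

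In the nucleus, Rbpj gave a log2 signal of 10.32 on the CBA/J array and 10.08 on the C57BL/6 array, a difference of 0.23. All 11 nuclear complex genes reached the level rule and 10 were higher in CBA/J, with Maml2, a Mastermind-like coactivator gene at -0.18, on the other side. The median was 0.23, and it was 0.12 with the arrays centred on their medians. The largest differences were 0.52 in Kat2a, an acetyltransferase gene, and 0.38 in Snw1, a coregulator and splicing gene. Neither passed 1.5-fold. Receptor turnover genes had a median of 0.18 over 9 genes, and of 0.06 with the arrays so centred. Their largest differences were -0.45 in Dtx1, a Deltex ubiquitin ligase gene that Notch signals are known to induce, and 0.32 in Fbxw7, whose product marks the freed receptor for breakdown.

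Target genes gave little signal. Of 8 listed genes, 3 reached the level rule, and these were Hes5, Myc and Ccnd1 at -0.16, 0.09 and -0.01. Hes1, the best known target, read 4.93 on the CBA/J array and 5.25 on the C57BL/6 array, under the negative control median of each array, so no ratio is given. Hey2 and Nrarp were under both medians too. Hey1 was at 5.55 and 5.71, below the level rule. Of all 8, 7 read higher in C57BL/6 and 1, Myc, in CBA/J. Hes1, Hey2 and Nrarp are among the 7, though their signal was under background. Myc and Ccnd1 also answer to many other signals. Dtx1, named above, gave 6.31 and 6.76.

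Of the 5 ligand-like genes, 4 were higher in C57BL/6 and 1, Dner at 0.07, in CBA/J. The level rule was met by 3, all higher in C57BL/6, though Egfl7 met it only on the array where it was higher. Dlk1, a membrane protein of the Delta-like family without the ligand's receptor-binding domain, gave a log2 signal of 6.65 on the CBA/J array and 7.21 on the C57BL/6 array, a difference of -0.56. Egfl7, a secreted factor of endothelium that can bind Notch receptors, was at 5.87 and 6.30, a difference of -0.43. Neither gene lay over the 95th percentile of its array's negative controls. Of 4 genes tied to the Notch2-dependent dendritic cells of mouse spleen, Esam, Clec4a4, Cd4 and Il23a, none reached the level rule.

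**Figure D3:**
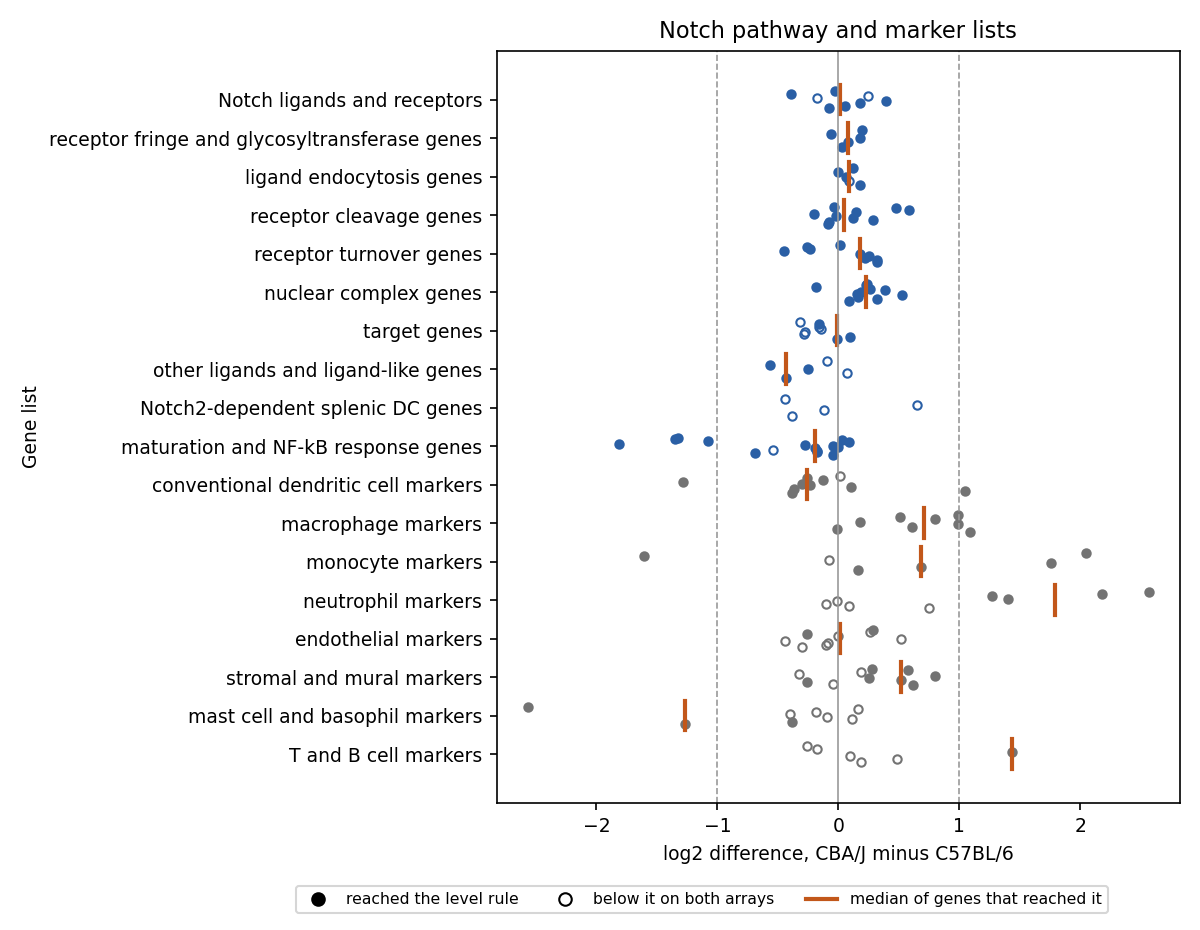
Log2 difference, CBA/J minus C57BL/6 (x axis), of each gene of the listed groups (y axis), with Notch members and pathway lists in blue and cell type markers in grey; filled points reached the level rule, open points did not, bars are medians over filled points, and dashed lines mark 2-fold. All listed Notch pathway genes lie within 2-fold. Some maturation genes and markers of dendritic cells, macrophages, monocytes, neutrophils, mast cells and basophils, and T and B cells reach past it.

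On the same arrays, some genes of dendritic cell maturation and the NF-kB response passed 2-fold. Of 13 such genes that reached the level rule, 4 were at least 2-fold higher in C57BL/6, beside 0.795% of all genes in that direction, and 1 more passed 1.5-fold. The list was chosen with earlier results of these data known, so its count beside that share is not a test. Ccl22, a chemokine gene of mature dendritic cells, was at -1.81, Ccr7, the lymph node homing receptor gene, at -1.35, Cd83 at -1.33, and Cd80, a costimulatory ligand gene, at -1.08. Traf1, an NF-kB induced adaptor gene, was at -0.69. The other 8 genes lay between -0.28 in Relb and 0.08 in Cd86. The list median was -0.19, and -0.31 under each of the 3 rescalings.

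Markers of other cells that express Notch genes also differed, and in bulk RNA fewer cells of a type cannot be told apart from less RNA per cell. Macrophage markers were higher in CBA/J for 7 of 8 genes, with a median of 0.70 and mean log2 signals of 9.90 in CBA/J and 9.25 in C57BL/6; Mrc1 was at 1.09 and Fcgr1 at 0.99. Of 6 monocyte markers 4 were higher in CBA/J, with Ccr2 at 2.05 and Ms4a6c at least 3.08-fold higher. Ly6c1 went the other way, at -1.61, and the mean log2 signals of the list were 7.87 and 7.38. Of 8 neutrophil markers 6 were higher in CBA/J, with Ly6g at least 4.78-fold higher and Ngp at 2.18, and the mean log2 signals were 6.92 and 5.90. Mpo at -0.01 and Camp at 0.09 did not meet the level rule. Neither did Elane, which lay under the negative control median on the CBA/J array, so no ratio is given for it. A ratio given as at least is taken against the negative control median, because one array lay under it. The part of these cells in the Notch1, Adam10 and Adam17 differences was not tested.

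Endothelial and mural cells are the known sites of Notch4 and Notch3. Of 9 endothelial markers, Tek, Sox17 and Emcn lay at or under the negative control medians on both arrays. The level rule was met by 2, Kdr at -0.26 and, on the CBA/J array alone, Pecam1 at 0.29. The largest differences of the list lay below the rule, with Tie1 at 0.52 and Esam at least 1.12-fold higher in C57BL/6. The mean log2 signals of the list were 5.65 and 5.66. Of 10 stromal and mural markers, 7 were higher in CBA/J and 3 in C57BL/6. The median over all 10 was 0.26. The level rule was met by 7, with a median of 0.52, though Pdgfra met it only on the CBA/J array, where it was higher. Of the 7, Acta2 at 0.80 and Lepr at 0.61 were the largest, and Col3a1 at -0.26 went the other way. Below the rule, Cspg4 at -0.32 also leaned to C57BL/6. Cxcl12 lay under the negative control median on the CBA/J array, and Rgs5 lay under both medians. The mean log2 signals were 6.59 and 6.33. The median of the dendritic cell markers was -0.26 over 9 genes, with H2-Ab1 at -1.28 and Dpp4 at 1.05. Of 8 mast cell and basophil markers, 3 reached the level rule, all higher in C57BL/6. Cpa3 was at least 4.35-fold higher there, Hdc was at -1.27 and Kit at -0.39. Fcer1a, Ms4a2, Mcpt8 and Cma1 lay under the negative control medians on both arrays, so no ratio is given for them. Cpa3 and Hdc met the level rule only on the C57BL/6 array. Cd2 was the 1 T and B cell marker of 6 that met it, only on the CBA/J array, and was at least 2.65-fold higher there.

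The members lie at 8 places on 4 chromosomes by the RefSeq table of GRCm38.p6, whose gene order alone was used here. Jag1, Dll4 and Notch1 lie on chromosome 2, Notch2 on chromosome 3, Jag2 on chromosome 12, and Dll1, Notch3 and Notch4 on chromosome 17. The 3 nearest measured genes on each side gave 48 neighbours, of which 34 reached the level rule. Of the 34, 1 passed 2-fold, close to the 2.14% of all genes. It was Spint1, a serine protease inhibitor gene near Dll4, at 8.24 in CBA/J and 9.73 in C57BL/6. Notch4 lies beside the class II region, where haplotypes differ between these strains, and its neighbours on that side, Btnl2, Btnl1 and BC051142, were below the level rule. On the other side Gpsm3, Pbx2 and Ager were at 0.29, 0.38 and -0.22. Egfl7, described above, is the next measured gene to Notch1 and leaned the other way, at -0.43 against 0.39.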

How the data were processed

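Log2 signal per probe set was used as the authors deposited it, and the tool named in the submitters' processing notes is Affymetrix Expression Console 1.1. How probes were summarized was not stated. The deposited log2 difference and linear ratio columns, per the file headers CBA minus BL6, equalled values from the array columns. Sorted values of both arrays differed by at most 0.157, so a change shared by most genes would not show. Of 35557 probe sets, 24422 carried 1 symbol and gave 21922 genes, each represented by its brightest probe set.

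The members and gene lists were chosen with earlier results of these data known. Text names all members, list genes past 1.5-fold or else the largest 2 differences, a few fixed pathway genes, the largest 2 of each marker list, and neighbours past 2-fold. Genes most like a member were to be named where it passed 1.5-fold, which none did. All listed names but Ly6c2 were matched. Chromosomes and promoters are from RefSeq on GRCm38.p6, matched by symbol. Protein sequences planned for display were not used here. Alternatives in scaling, level rule and probe set were recomputed, and calculations were tested on simulated data. With 1 array per strain no spread could be estimated; the number of arrays limits the precision. Python 3.11.15, numpy 2.4.6, pandas 2.3.3 and statsmodels 0.14.6 were used.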

Additional observations from a re-analysis of the deposited data

How the results depend on the processing

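No paired analysis was possible because the result comes from no test and each strain has 1 array. For the same reason no array could be left out. The counts of members past 2-fold and past 1.5-fold were 0 under quantile normalization, with the trend of the difference with signal removed, with arrays centred on their medians, with probe sets averaged, with the series matrix values, and under 3 other level rules, where 3 to 8 members counted. Over these settings 1.23% to 2.68% of all genes that counted passed 2-fold, and 4.82% to 7.3% passed 1.5-fold. A count of 0 is close to these shares and is not a result about the family. The centring moved the median of all genes by -0.11. The member differences ranged from 0.28 to 0.39 for Notch1, 0.06 to 0.18 for Notch2, -0.51 to -0.34 for Jag2, -0.14 to -0.03 for Jag1, 0.13 to 0.33 for Dll1, -0.29 to -0.09 for Dll4 and -0.19 to -0.04 for Notch4, and Notch3 was the member that changed sign, at -0.06 under centring. Series matrix values were identical, and averaging could not move members with 1 probe set. Medians of sugar-transfer, ligand uptake and cleavage genes changed sign within 0.15 of 0. Of the genes tied to Notch2-dependent splenic dendritic cells none reached the level rule, so no median stands in the report. With no level filter it was -0.25 over 4 genes. None of the 4 lay over the negative control median on both arrays, so no lean toward a strain is read from it. The receptor turnover median ranged from 0.04 to 0.18, and the maturation median from -0.31 to -0.19. Target and ligand-like genes had no member left at the 95th percentile of the negative controls. Signal over background limits Jag2, Dll1, Dll4, Notch3 and Notch4 most, because background can hide a difference there.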
